A study of Danio rerio with 4 samples.

Results

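The outermost 1 Mb of the zebrafish chromosomes was examined for 5-hydroxymethylcytosine (5hmC) in 2 peak lists, 1 from embryos injected with tet2 and tet3 morpholinos together (tet2/3 double morpholino, here tet2/3 morpholino) and 1 from embryos injected with a control morpholino. Peaks were taken at 49 chromosome ends, the start and the finish of chromosomes 1 to 25 without the far end of chromosome 4. A peak belonged to an end if its midpoint lay within 1 Mb of position 0 or of the last peak end on that chromosome. This gave 9519 of 80550 tet2/3 morpholino peaks and 12878 of 226591 control peaks on the 25 chromosomes, or 22397 of 307141 in all. Peaks 10 to 20 Mb from the nearer end served for comparison, with 24506 tet2/3 morpholino and 80035 control peaks in 486.6 Mb. They are called interior peaks here. On chromosome 4 the interior was taken on the near side only. Coordinates are those of the zebrafish genome build GRCz11.

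DNA of embryos at 48 hours after fertilisation was sonicated and 5hmC-bearing fragments were pulled down and sequenced (hMeDIP). Morpholinos are antisense oligonucleotides injected to lower the output of a gene by blocking its RNA. The tissue given is embryo, while the extraction protocol speaks of the head. The sources used here do not say how many embryos a library holds. The groups differ in the labels by morpholino alone, and each has 1 pull-down and 1 input. Peak lists of DNA show neither the tissue nor the effect of the morpholinos on their transcripts. No difference between the groups has a replicate check.

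TET enzymes oxidise 5-methylcytosine to 5hmC, a step on the way to demethylation and a stable mark in many differentiated cells. In zebrafish, Tet2 and Tet3 make most of the 5hmC of the embryo. The parts of vertebrate chromosomes next to the telomeres are often rich in repeats and segmental duplications, where short reads are hard to place.

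The lists differ in background and in their shortest peak, which bears on each comparison between them. The commonest background pileup, worked out for each peak from its fold and p-value, was 2.81 in the tet2/3 morpholino list and 7.53 in the control list. Pileup values of the tet2/3 morpholino list were scaled by 0.474. Divided by the length of the shortest peak of each list, the backgrounds were 21.3 (tet2/3 morpholino) and 33.9 (control) fragments per kb. The control value was then 1.59 times the tet2/3 morpholino value. Before scaling, the tet2/3 morpholino pileup was 5.94, below the control value. Divided in the same way it was 45.0 per kb, above the control value. The order thus depends on this division, so which library was sequenced more deeply cannot be read from these values. The shortest peak was 132 bp in the tet2/3 morpholino list and 222 bp in the control list. Within a list, background at called peaks differed little on average between ends and interior. Its mean pileup, in scaled fragments, was 3.44 at the ends and 3.59 in the interior in the tet2/3 morpholino list, a ratio of 0.958. In the control list it was 8.77 at the ends and 9.13 in the interior, a ratio of 0.961. Peaks at the lowest background, which is the commonest value or less, were more frequent at the ends. In tet2/3 morpholino embryos they made up 39.0% of peaks at the ends and 20.4% in the interior. In control embryos they made up 36.6% and 17.8%. Means over peaks that share a lowest value may miss a lower coverage at the ends. Sequence without peaks does not enter them. The part of background in the results below was not tested.

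Peaks crowded towards the ends in both lists, and more so in the tet2/3 morpholino list. The tet2/3 morpholino list held 194.3 peaks per Mb at the ends and 50.4 per Mb in the interior, a ratio of 3.86. The control list held 262.8 per Mb at the ends and 164.5 per Mb in the interior, a ratio of 1.60. The 49 ends make up 3.64% of the length of the chromosomes, and they held 11.8% of tet2/3 morpholino and 5.68% of control peaks. Peak intervals covered 7.98% of the sequence at the ends and 1.73% of the interior in tet2/3 morpholino embryos, and 14.6% and 7.75% in control embryos. The tet2/3 morpholino list was thus 0.739 times as long as the control list at the ends and 0.306 times as long in the interior. The ratio at the ends was 0.480 with a −log10 q of 5 or more (0.167 in the interior). It was 1.90 with the control list shortened by q-value to the length of the tet2/3 morpholino list (0.882 in the interior), which turns the order of the lists at the ends. Without the start of chromosome 3, which held few peaks, the ratio at the ends was 0.740.

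The crowding was strongest next to the edge. In the outermost 100 kb, the 49 ends held 1519 tet2/3 morpholino and 1605 control peaks, a ratio of 0.946. From 100 to 200 kb they held 1343 and 1479, a ratio of 0.908, and from 200 to 300 kb 1062 and 1327. From there the ratio fell unevenly, to 0.700 at 400 to 500 kb and 0.642 at 600 to 700 kb. It was 0.645 at 700 to 800 kb and 0.637 at 800 to 900 kb. At 900 to 1000 kb, where 631 tet2/3 morpholino and 1128 control peaks lay, it was 0.559. Over these 10 bins the tet2/3 morpholino density fell to 128.8 per Mb at 900 to 1000 kb, against 310.0 per Mb in the outermost bin. The control density fell to 230.2 per Mb there, against 327.6 per Mb in the outermost bin. Both decreased at most steps, and both rose between 400 to 500 kb and 500 to 600 kb.

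The near parity in the outermost bin depended on the threshold for a peak. When a −log10 q of 5 or more was asked of each peak, the ratio there was 0.619, and with a fold of 4 or more it was 1.27. It was 2.63 when the control list was shortened in the same way. Under these 3 settings the ratio at 900 to 1000 kb was 0.368, 0.699 and 1.38, so in each it was lower than in the outermost bin. A q-value depends on the depth tested, so the same cut does not lie at equal enrichment in both lists. The lists also differ in background and in shortest peak, so the cut at a fold of 4 need not lie at equal enrichment either.

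**Figure D1:**
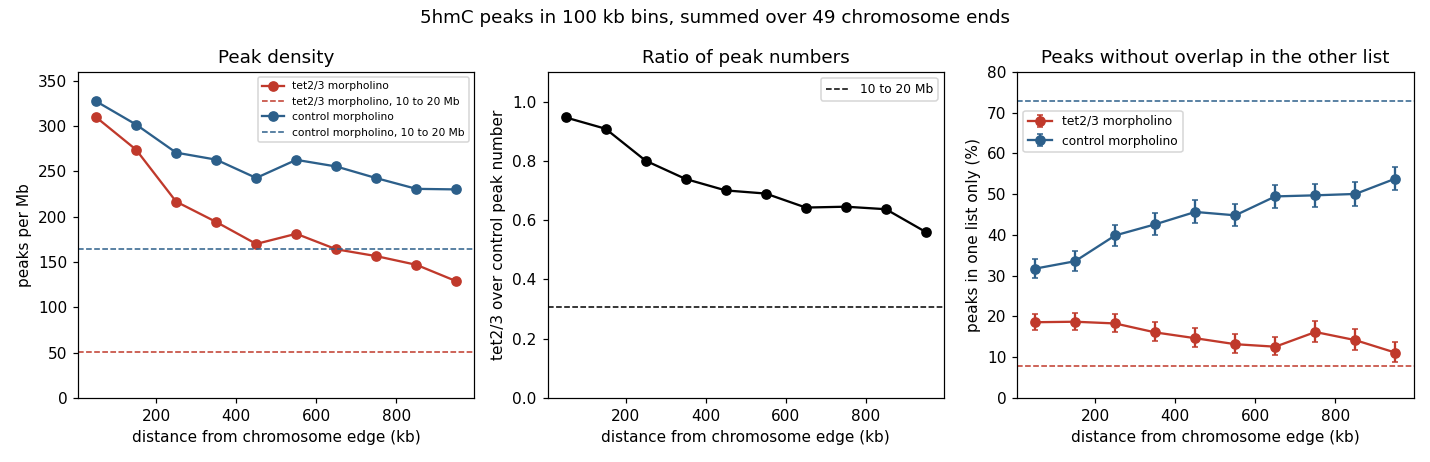
Peaks per Mb (left), tet2/3 over control peak number (middle) and peaks without overlap in the other list (right, with 95% Wilson intervals) in bins of 100 kb from the chromosome edge, summed over 49 ends. Dashed lines give the interior, 10 to 20 Mb from an end. The ratio falls to 0.559 in the innermost bin, against 0.946 in the outermost, and stays above the interior value of 0.306 throughout.

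Beyond the first megabase the lists diverged further. From 1 to 2 Mb there were 105.9 tet2/3 morpholino and 212.9 control peaks per Mb, a ratio of 0.498. The ratio was 0.409 from 2 to 3 Mb, 0.341 from 3 to 4 Mb and 0.296 from 9 to 10 Mb. The control density was near its interior value from 2 to 3 Mb, at 173.3 per Mb. It was 182.0 per Mb from 3 to 4 Mb and 168.2 per Mb from 4 to 5 Mb. The tet2/3 morpholino density over these 3 steps was 70.9, 62.1 and 56.6 per Mb. More than 20 Mb from an end, the densities were 57.9 per Mb (tet2/3 morpholino) and 175.8 per Mb (control).

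Taken one by one, all 49 ends had a higher ratio than the interior of their own chromosome. The ratios of the ends had a median of 0.756 (lowest 0.372, highest 0.969, SD over ends 0.126), and the interiors of the 25 chromosomes lay between 0.253 and 0.354. Cut into 484 windows of 1 Mb, the interior had a median ratio of 0.291 and a highest of 0.559. Of the 49 ends, 44 lay above that highest window. The other 5 were both ends of chromosome 3, the start of chromosome 20 and the finishes of chromosomes 10 and 22. Tet2/3 morpholino peak number exceeded the fullest interior window, with 145 peaks, at 40 ends. Control peak number exceeded the fullest interior window, with 360 peaks, at 2 ends, the starts of chromosomes 16 and 25. Ends were therefore outside the range of the interior mainly in the tet2/3 morpholino list.

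Ends rich in control peaks were in general rich in tet2/3 morpholino peaks. Across the 49 ends, the 2 peak numbers had a Pearson r of 0.886 and a Spearman rho of 0.876 (r = 0.859 without the start of chromosome 3), over points that share libraries and mappability. The ratio had an r of 0.274 with control peak number (0.104 without the start of chromosome 3). Control peak number is the denominator of the ratio, which biases this r, so it does not show whether they are related. The median ratio was 0.757 over 25 starts and 0.740 over 24 finishes, and no test of that difference was made. Over the 24 chromosomes with both ends, the ratio at the start and at the finish had an r of 0.031. Control peak number at an end and control density in the interior of the same chromosome had an r of 0.003 over the 49 ends. Both ends of a chromosome share 1 interior value there, so the 49 points are not independent.

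**Figure D2:**
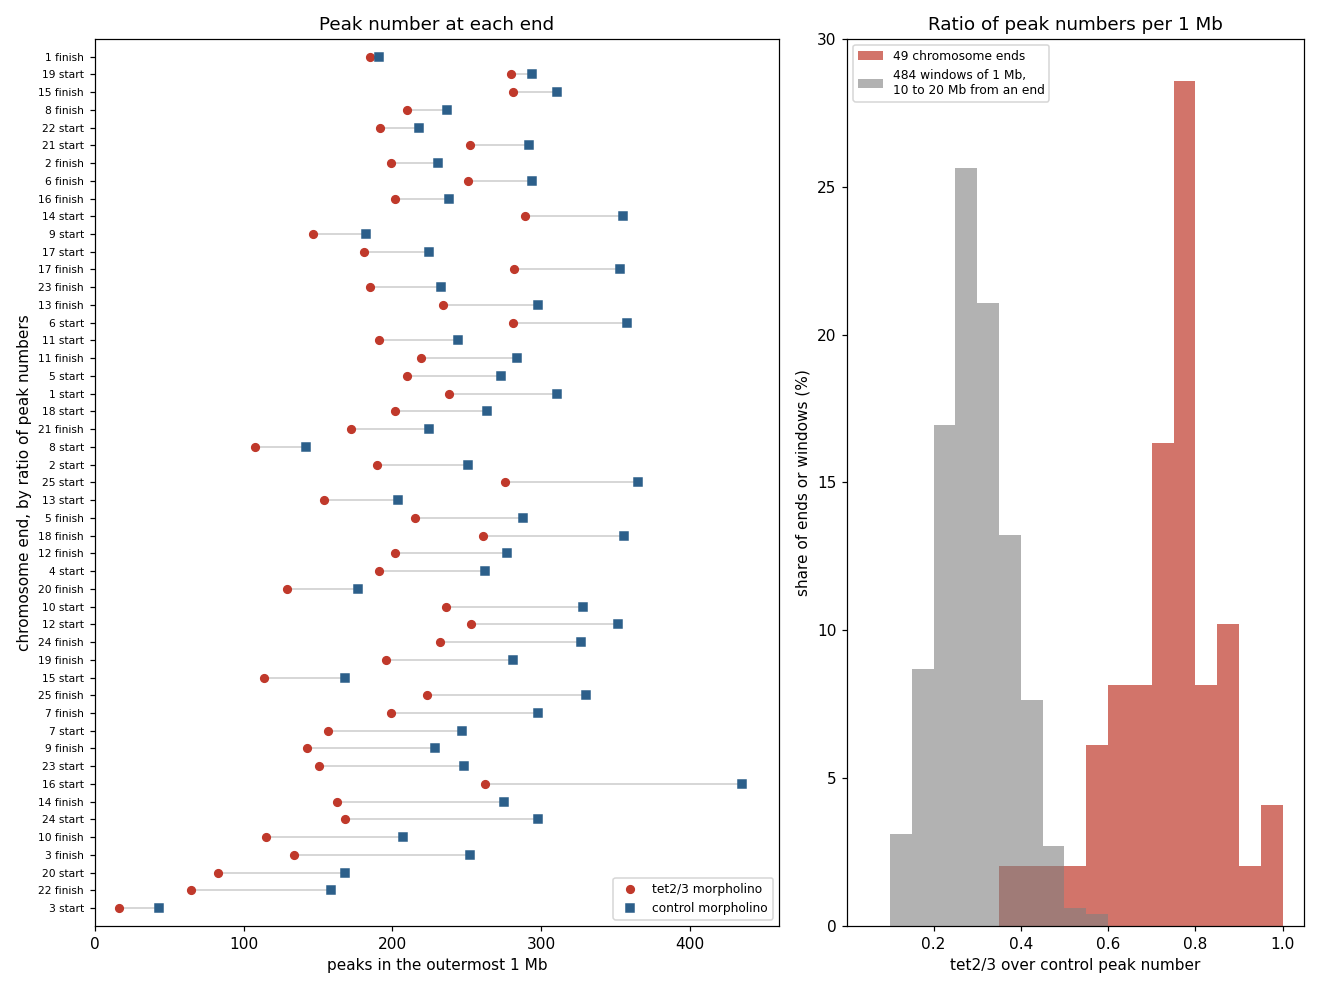
Left, peaks in the outermost 1 Mb at each of 49 ends (points, tet2/3 morpholino; squares, control morpholino), ordered by their ratio. Right, the ratio per 1 Mb at the ends and in 484 interior windows, as a share of each. At the deposited thresholds no end held more tet2/3 morpholino than control peaks, and 44 ends lie above the highest interior window, at 0.559.

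At 3 ends the lists were close to equal in length. The finish of chromosome 1 held 185 tet2/3 morpholino and 191 control peaks, a ratio of 0.969. Chromosome 19 held 280 and 294 at its start (0.952), and the finish of chromosome 15 held 281 and 311 (0.904). These 3 differ in fullness, the finish of chromosome 1 being below the median end in both lists.

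A further 9 ends had ratios of 0.8 to 0.9. Fullest in the tet2/3 morpholino list were the start of chromosome 14, with 289 tet2/3 morpholino and 355 control peaks, and the start of chromosome 21, with 252 and 292. Next, the finish of chromosome 6 held 251 and 294, the finish of chromosome 8 210 and 237, and the finish of chromosome 16 202 and 238. Then the finish of chromosome 2 held 199 and 231, the start of chromosome 22 192 and 218, and the start of chromosome 17 181 and 225. Emptiest of the 9 was the start of chromosome 9, with 147 and 182.

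The largest class, 22 ends, had ratios of 0.7 to 0.8. Among them, the finish of chromosome 17 held 282 tet2/3 morpholino and 353 control peaks, the start of chromosome 6 281 and 358, and the start of chromosome 25 276 and 365. Chromosome 18 held 261 and 356 at its finish, the start of chromosome 12 253 and 352, and the start of chromosome 1 238 and 311. Chromosome 10 held 236 and 328 at its start, the finish of chromosome 13 234 and 298, and the finish of chromosome 24 232 and 327.

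The other 13 ends of that class held fewer tet2/3 morpholino peaks. On chromosome 11, the finish held 219 tet2/3 morpholino and 284 control peaks, the finish of chromosome 5 215 and 288, and the start of chromosome 5 210 and 273. On chromosome 12, the finish held 202 and 277, the start of chromosome 18 202 and 264, and the start of chromosome 4 191 and 262. On chromosome 11, the start held 191 and 244, the start of chromosome 2 190 and 251, and the finish of chromosome 23 185 and 233. Fewer peaks were called at the finish of chromosome 21 (172 and 225), the start of chromosome 13 (154 and 204), the finish of chromosome 20 (129 and 177) and the start of chromosome 8 (108 and 142).

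A ratio of 0.6 to 0.7 was found at 8 ends. Among these, the start of chromosome 16 held 262 tet2/3 morpholino peaks and 435 control peaks, the most control peaks of the 49. The finish of chromosome 25 held 223 tet2/3 morpholino and 330 control peaks, the finish of chromosome 7 199 and 298, and the finish of chromosome 19 196 and 281. Fewer lay at the start of chromosome 7, with 157 and 247, the start of chromosome 23, with 151 and 248, the finish of chromosome 9, with 143 and 229, and the start of chromosome 15, with 114 and 168.

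Ratios under 0.6 were found at 7 ends. The start of chromosome 3 stood apart, with 16 tet2/3 morpholino and 43 control peaks, against 42.6 and 135.7 per Mb in the interior of chromosome 3. It was the only end less dense than its own interior in the tet2/3 morpholino list. In the control list it was 1 of 5 such ends, with the starts of chromosomes 4, 8 and 15 and the finish of chromosome 22. The finish of chromosome 22 held 65 tet2/3 morpholino and 159 control peaks, a ratio of 0.409, and the start of chromosome 20 held 83 and 168. On chromosome 3, the finish held 134 and 252, the finish of chromosome 10 115 and 207, the start of chromosome 24 168 and 298, and the finish of chromosome 14 163 and 275.

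The gradient within the megabase was found at most ends but not at each. The ratio was higher in the outer 500 kb than in the inner 500 kb at 40 of 49 ends. In the outer 500 kb, tet2/3 morpholino peaks outnumbered control peaks at 6 ends, and in the inner 500 kb at none. The widest margin was at the start of chromosome 13, with 101 tet2/3 morpholino and 90 control peaks in the outer and 53 and 114 in the inner 500 kb. The other 5 were the starts of chromosomes 2, 11, 19 and 21 and the finish of chromosome 1, with margins of 1 to 8 peaks. In the outermost 100 kb, tet2/3 morpholino peaks outnumbered control peaks at 19 ends and equalled them at 3. At 900 to 1000 kb they outnumbered them at none and equalled them at 2.

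At the other 9 ends the ratio was lower in the outer 500 kb. At the finish of chromosome 16, the tet2/3 morpholino list held 53 peaks in the outer and 149 in the inner 500 kb, against 88 and 150 in the control list. At the finish of chromosome 2 it held 50 and 149, against 78 and 153. Chromosome 20 had at its finish 3, 2 and 2 tet2/3 morpholino peaks in its first 3 bins and 32 in the next, against 13, 4, 16 and 38 control peaks. Chromosome 7 had at its start 5 and 2 in its first 2 bins and 27 at 300 to 400 kb, against 8, 5 and 35 in control embryos. The starts of chromosomes 3, 16 and 17 and the finishes of chromosomes 22 and 23 completed the group.

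Single bins were uneven. Of 490 bins, 64 (13.1%) held more tet2/3 morpholino than control peaks, 411 held fewer, and 2 were empty in both lists. Of 4864 interior bins of the same length, 22 (0.452%) held more tet2/3 morpholino peaks. Within the outer 200 kb of the ends the count was 31 of 98 bins, and from 800 to 1000 kb it was 6 of 98. A bin at the ends held a median of 18 tet2/3 morpholino and 26 control peaks. An interior bin held a median of 3 and 15.

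The fullest bin of the tet2/3 morpholino list was the outermost 100 kb at the start of chromosome 19, with 62 peaks against 44 in control embryos. Next came 100 to 200 kb from the start of chromosome 25, with 61 against 48, and the outermost 100 kb of chromosome 12, with 60 against 53. The fullest control bin was the outermost 100 kb of chromosome 16, with 52 tet2/3 morpholino and 54 control peaks. Another 2 bins held 53 control peaks, the outermost 100 kb of chromosome 12 and 500 to 600 kb from the start of chromosome 2, where 24 tet2/3 morpholino peaks lay. From 200 to 300 kb at the start of chromosome 13, 36 tet2/3 morpholino peaks faced 19 control peaks. There 18 of the tet2/3 morpholino peaks overlapped no control peak, while none of the 19 control peaks lacked a tet2/3 morpholino peak. On all 25 chromosomes, 9.45% of tet2/3 morpholino and 69.4% of control peaks were without overlap in the other list.

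**Figure D3:**
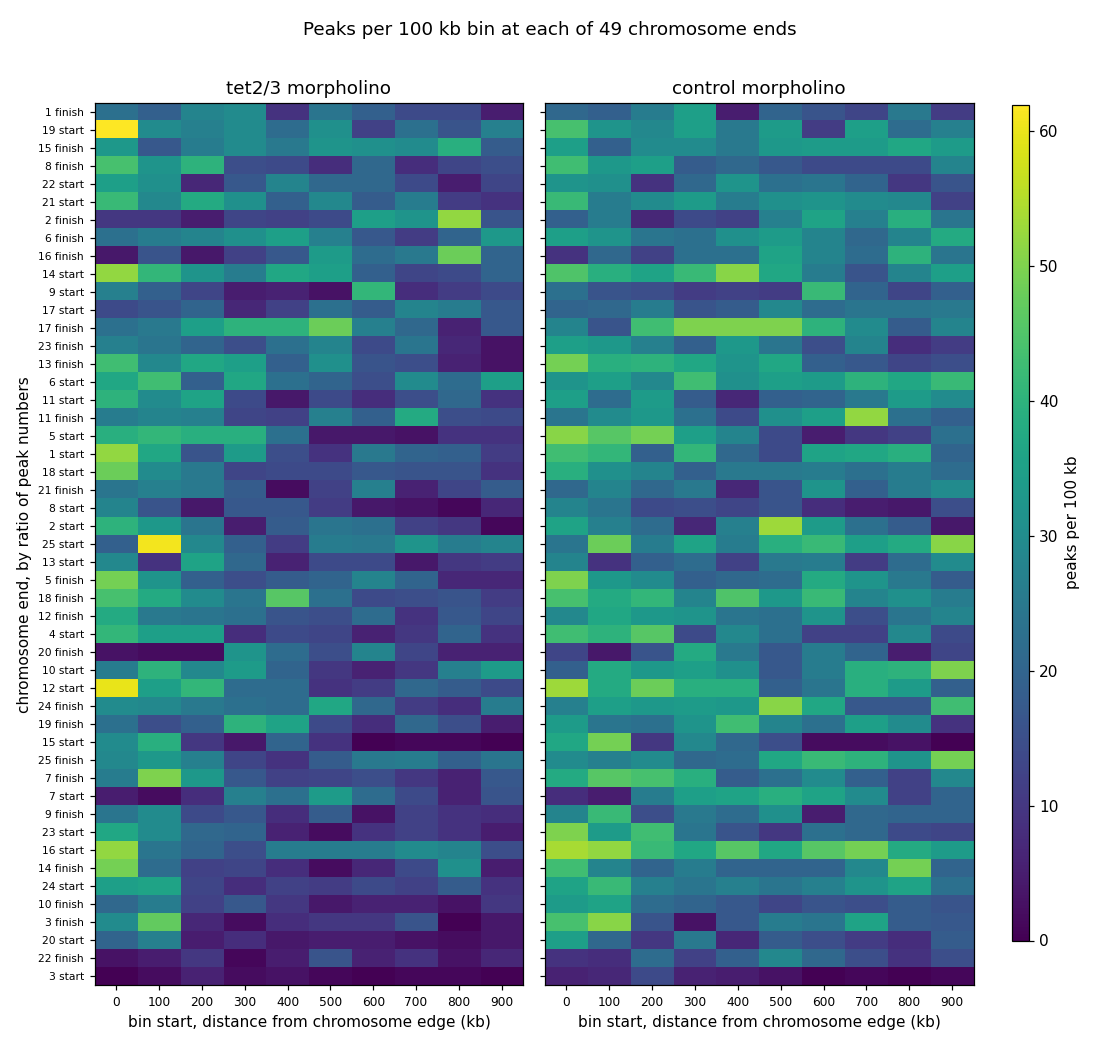
Peaks per 100 kb bin at each of 49 ends for tet2/3 morpholino (left) and control (right), on 1 colour scale from 0 to 62 peaks, with ends ordered by the ratio of peak numbers. Full bins gather at the left of the tet2/3 morpholino panel and are spread more evenly over the control panel.

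Long stretches without any peak also occurred. Over both lists, the longest ran from 814.6 kb to the 1000 kb limit at the start of chromosome 15, and may continue beyond it. The next lay at 569.4 to 724.9 kb from the start of chromosome 3 and at 817.8 to 927.3 kb from the start of chromosome 8. Of the 49 ends, 3 had an empty bin in the tet2/3 morpholino list (6 bins in all) and 2 in the control list (3 bins). Close to the edge itself, the first tet2/3 morpholino midpoint lay a median of 709 bp from the edge and the first control midpoint 539 bp, the edge at a finish being set by a peak itself.

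Peaks stood closer together at the ends in both lists, with the larger difference from the interior in the tet2/3 morpholino list. The median distance between neighbouring midpoints was 2314 bp at the ends and 7444 bp in the interior in the tet2/3 morpholino list. It was 2251 bp at the ends and 3236 bp in the interior in the control list. At the ends, 45.0% of tet2/3 morpholino and 44.1% of control distances were under 2 kb. In the interior the shares were 13.1% and 28.8%. The median was shorter than in the interior of the same chromosome at 47 of 49 ends in the tet2/3 morpholino list and 45 in the control list. In the outermost 100 kb, the tet2/3 morpholino median was 1570 bp and the control median 1804 bp. At 900 to 1000 kb they were 3212 bp and 2504 bp. Which list had the shorter median depended on the threshold. Over the whole megabase the medians were 3973 bp (tet2/3 morpholino) and 2566 bp (control) with a −log10 q of 5 or more, and 2314 bp and 4277 bp with the control list shortened.

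Close peaks formed runs. With gaps of at most 2 kb joined, 52.4% of tet2/3 morpholino peaks at the ends lay in runs of 3 or more, against 10.2% in the interior. For control peaks the shares were 58.3% and 34.8%. Runs of 10 or more peaks numbered 39 in the tet2/3 morpholino list at the ends and 9 in the whole interior, and 102 and 212 in the control list. Per 10 Mb this was 7.96 against 0.185 in tet2/3 morpholino embryos and 20.8 against 4.36 in control embryos. Runs at a fixed gap become more frequent as density rises, and the part of this was not tested. The SD of the distances over their mean was 1.79 at the ends and 1.77 in the interior in the tet2/3 morpholino list. In the control list it was 1.45 and 1.56. At the ends, the longest tet2/3 morpholino runs held 20 peaks each, at chr19:5-19905 and chr25:129238-148601. The longest control run at the ends held 31 peaks, at chr16:30650-66429. In the interior the longest run held 14 peaks in the tet2/3 morpholino list and 47 in the control list. The longest control run was thus longer in the interior than at the ends. Runs outside the ends and the interior were not sought.

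Peaks were wider at the ends in both groups. The median width was 314 bp at the ends and 280 bp in the interior in the tet2/3 morpholino list, and 442 bp and 388 bp in the control list. Ratios of ends to interior were 1.12 and 1.14. Widths are not compared between the lists, since their shortest peaks differ too. Single ends had medians of 228 to 386 bp in the tet2/3 morpholino list and 362 to 556 bp in the control list. The median exceeded that of the interior of the same chromosome at 41 ends in the tet2/3 morpholino list and 42 in the control list. Peaks over 1 kb made up 5.29% of tet2/3 morpholino peaks at the ends and 1.89% in the interior, and 9.95% and 4.83% of control peaks. Along the 10 bins the tet2/3 morpholino median was 334 bp in the outermost and 306 bp in the innermost, and the control median 458 bp and 428 bp. From 2 to 3 Mb the medians were 280 bp (tet2/3 morpholino) and 394 bp (control), near those of the interior. Width was thus also lower further from the edge, though over the 10 bins it changed by a smaller factor than number.

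**Figure D4:**
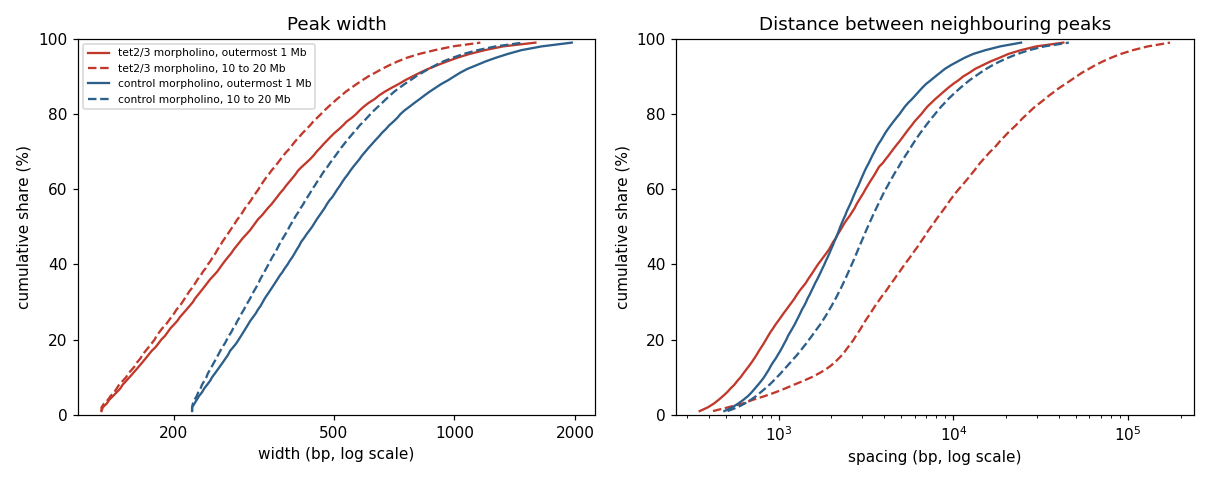
Cumulative share of peaks by width (left) and of neighbouring midpoints by distance (right), both on log scales, for both lists at the ends (solid) and in the interior (dashed). The median distance of tet2/3 morpholino peaks is 2314 bp at the ends and 7444 bp in the interior, while the median widths are 314 bp and 280 bp.

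The widest peaks were matched in both lists. The widest tet2/3 morpholino peak at the ends, at chr14:21696-25481, spanned 3786 bp and was overlapped by 4 control peaks within 21606-25416. Next was chr13:604106-607614, which spanned 3509 bp and lay within a control peak of 3674 bp. The widest control peak, at chr13:596641-601237, spanned 4597 bp and was overlapped by 3 tet2/3 morpholino peaks. Of control peaks at the ends, 6.17% overlapped 2 or more tet2/3 morpholino peaks, against 1.12% in the interior. Of tet2/3 morpholino peaks at the ends, 1.95% overlapped 2 or more control peaks, against 0.494% in the interior.

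Each of the 5 strongest tet2/3 morpholino peaks at the ends overlapped a control peak, and each of the 5 strongest control peaks a tet2/3 morpholino peak. So did nearly all peaks of high fold. At a fold of 12 or more, 0 of 39 tet2/3 morpholino peaks at the ends and 0 of 36 in the interior lacked overlap. Of control peaks of that fold, 3 of 148 and 9 of 367 did. On all 25 chromosomes, 9.45% of tet2/3 morpholino and 69.4% of control peaks lacked overlap. By the authors' fold, the first tet2/3 morpholino peak lay 27.7 kb from the start of chromosome 14, with a fold of 17.5 from 146 fragments before scaling, beside the widest peak named above. The second lay 858.7 kb from the finish of chromosome 8 with a fold of 17.3, and the third 341.6 kb from the finish of chromosome 7 with a fold of 16.3. Next came chr14:52576009-52576444, 83.9 kb from the finish, with a fold of 15.8, inside a wider control peak. Last of the 5 was chr16:81876-83761, of fold 14.5, with nearly the same borders as its control peak, at 81872-83770.

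Of the 5 strongest control peaks at the ends, 3 lay 227.3, 238.8 and 341.5 kb from the finish of chromosome 7, with folds of 18.9, 23.2 and 22.2. The first of these, at chr7:74053290-74056211, overlapped a tet2/3 morpholino peak. The other 2 were chr13:604012-607685 (fold 19.8) and chr9:55922523-55923610 (fold 19.7). Folds of single peaks are not compared between the lists, which differ in background and in shortest peak.

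Fewer control peaks lacked a tet2/3 morpholino peak at the ends than in the interior. Of the control peaks at the ends, 5586 of 12878 (43.4%, 95% CI 42.5 to 44.2) had no overlapping tet2/3 morpholino peak, against 72.8% (72.5 to 73.2) in the interior and 69.4% on all 25 chromosomes. The share was below that of the interior of the same chromosome at 49 of 49 ends. At the start of chromosome 3 it was all but equal to the interior (72.09% against 72.11%). Over all ends the share was 31.7% (29.5 to 34.0) in the outermost 100 kb and 53.8% (50.9 to 56.7) at 900 to 1000 kb. Overlap also depends on how much sequence the other list covers. Tet2/3 morpholino peaks covered 7.98% of the sequence at the ends and 1.73% of the interior, and the part of this in the difference was not tested. The number of tet2/3 morpholino peaks per control peak, 0.739 at the ends and 0.306 in the interior, limits this share too. Few tet2/3 morpholino peaks overlapped 2 or more control peaks (1.95% and 0.494%). The share is therefore tied to the ratio of peak numbers and is not a result independent of it.

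The lower share at the ends was also found at equal control fold over most of its range. At a control fold of 2 to 3, 69.9% (68.2 to 71.6) of control peaks at the ends had no tet2/3 morpholino peak, against 92.3% (91.9 to 92.7) in the interior. At 4 to 5 it was 36.7% (34.7 to 38.8) against 72.2% (71.5 to 73.0), and at 6 to 8 15.5% (13.8 to 17.4) against 35.8% (34.8 to 36.9). At a fold of 12 or more, 3 of 148 control peaks at the ends and 9 of 367 in the interior lacked one, shares of 2.03% and 2.45% whose intervals overlap. Outside these classes, 116 control peaks at the ends had a fold under 2.

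More tet2/3 morpholino peaks lacked a control peak at the ends. Of the tet2/3 morpholino peaks at the ends, 1516 of 9519 (15.9%, 95% CI 15.2 to 16.7) met no peak of the control list, against 7.88% (7.54 to 8.22) in the interior and 9.45% on all 25 chromosomes. Control peaks covered 14.6% of the sequence at the ends and 7.75% in the interior, and the part of this in the difference was not tested. The share was above that of the interior of the same chromosome at 46 of 49 ends. It was 18.6% (16.7 to 20.6) in the outermost 100 kb and 11.1% (8.87 to 13.8) at 900 to 1000 kb. The difference depended on what counts as shared. When 50% of both intervals had to overlap, the shares were 51.5% at the ends and 51.3% in the interior, and with peaks within 500 bp counted as shared they were 9.59% and 6.48%.

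Those found in the tet2/3 morpholino list alone were weak and narrow. Their median fold at the ends was 3.76 and their median width 194 bp, against 4.58 and 349 bp for overlapped peaks. In the interior these values were 3.74 and 176 bp, against 4.08 and 293 bp. Control peaks without overlap were weaker and narrower than overlapped ones too. At the ends their medians were 3.28 and 336.5 bp, against 4.81 and 564 bp. In the interior they were 3.43 and 343 bp, against 5.49 and 586 bp. A narrow interval has less sequence to share with another peak, and the part of this was not tested. The excess of tet2/3 morpholino peaks without overlap at the ends lay mainly at low fold. At a tet2/3 morpholino fold of 3 to 4, 27.9% (26.3 to 29.5) of peaks at the ends lacked a control peak, against 10.8% (10.2 to 11.4) in the interior. At 5 to 6 it was 4.49% (3.56 to 5.64) against 3.07% (2.52 to 3.75), and the intervals overlap. Overlap of intervals is not a test of a difference, and does not show that the shares are equal. At 8 to 12, 0 of 453 peaks at the ends lacked one, with an upper limit of the Wilson interval of 0.841%. From tet2/3 morpholino peaks without overlap, the nearest control midpoint lay at a median of 1113 bp at the ends and 2321 bp in the interior. It lay within 2 kb for 71.9% and 44.6%.

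**Figure D5:**
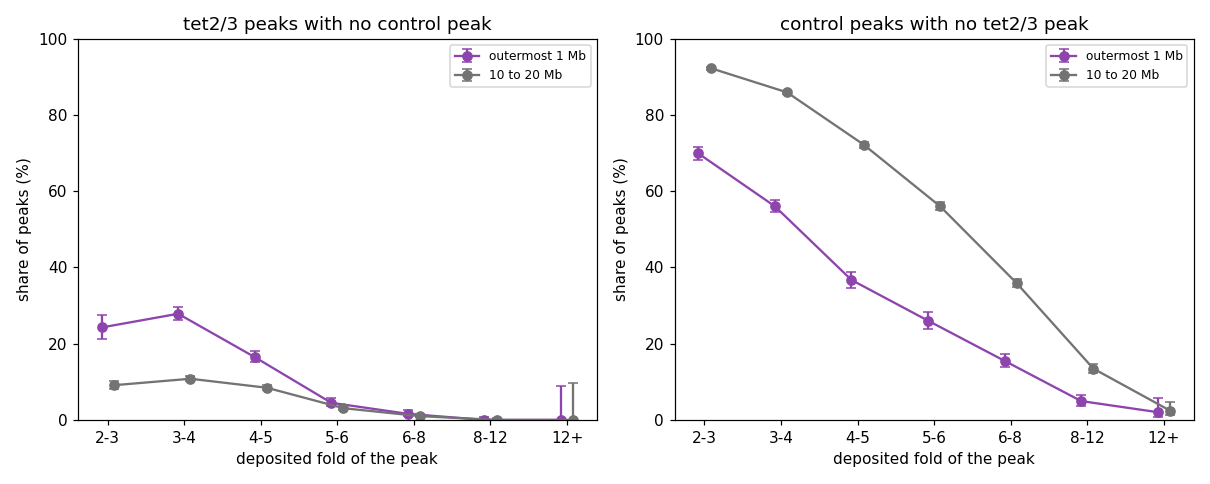
Share of tet2/3 morpholino peaks with no control peak (left) and of control peaks with no tet2/3 morpholino peak (right), by the deposited fold of the peak, at the ends and in the interior, with 95% Wilson intervals. The control share is lower at the ends in each class up to a fold of 12. The tet2/3 morpholino share is higher there up to a fold of 8, with overlapping intervals from 5 to 8.

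The ends differed in their peaks without overlap. The tet2/3 morpholino share had a median of 16.3% over the 49 ends. It was highest at the finish of chromosome 1, where 50 of 185 peaks (27.0%) had no control peak, and the finish of chromosome 2, where 52 of 199 (26.1%) had none. It was lowest at the start of chromosome 16, at 5 of 262 (1.91%), where control peaks were also densest. Both ends of chromosome 7 were likewise below the interior of their chromosome, at 10.2% and 10.6% against 11.1%. The control share had a median of 43.1% over the ends. It was lowest at the start of chromosome 22, at 69 of 218 (31.7%). It was highest at the start of chromosome 3, at 31 of 43 (72.1%, Wilson interval 57.3 to 83.3). That highest share was all but equal to the 72.1% in the interior of chromosome 3. On all 25 chromosomes, 9.45% of tet2/3 morpholino and 69.4% of control peaks were without overlap in the other list. Across the 49 ends, the shares of the 2 lists had an r of 0.085.

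The strongest peaks found in 1 list only were near misses in part. The strongest such tet2/3 morpholino peak at the ends, chr6:59682490-59682678 (fold 7.22), lay 1047 bp from the next control peak. Next, chr8:161890-162118 (fold 6.97) lay 239 bp from one, and chr23:855986-856784 (fold 6.84) lay 3096 bp away. Among control peaks, the strongest was chr15:47170122-47170604 (fold 13.4, 137 fragments), which lay 6147 bp from the next tet2/3 morpholino peak. Next, chr24:72537-72978 (fold 12.3) and chr3:62438778-62439212 (fold 12.1) lay 209 and 213 bp from one.

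At the edges themselves the lists did not always meet. The tet2/3 morpholino peak at chr2:59639637-59639780 was the last interval on that chromosome in either list, 20737 bp beyond the nearest control peak. On chromosome 19, the tet2/3 morpholino peak at 5-141 had a fold of 5.70 and no control peak within 801 bp. In the other direction, the last control peaks of chromosome 3, at 62622159-62622459, and chromosome 16, at 55265073-55265380, lay 24118 and 22515 bp from the nearest tet2/3 morpholino peak. The last control peak of chromosome 5, at 72499993-72500284, contained the tet2/3 morpholino peak at 72500088-72500259.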

How the data were processed

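The data are 2 lists of 5hmC peaks, 1 per pull-down, from a series of 4 libraries that also holds 1 input per group. Per the submitters' processing notes, Bowtie2 2.2.6, MACS2 2.2.7.1 and deepTools were used, and the builds named are GRCz11 and danRer11. Settings and the role of the inputs were not given in the sources used here. The authors deposited for each peak a fold, the ratio of its summit pileup to local background after 1 was added to both. The −log10 p-value and −log10 q-value of each peak are deposited too, and the deposited score is 10 times the −log10 q-value without its decimals for 99.99% of peaks in each list. Positions are 1-based in GRCz11.

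Peaks were placed by interval midpoint, with the last peak end over both lists taken as the length of a chromosome. Sharing 1 bp or more with a peak from the other list counted as overlap (Python 3.11.15, numpy 2.4.6, pandas 2.3.3, scipy 1.17.1). Fragments and background behind each peak were solved from fold and p-value under a Poisson model. The solution met the deposited fold within 0.1% for 99.97% of tet2/3 morpholino and 100% of control peaks, after the method was tested on simulated data. The scale of each list was chosen for the least misfit to these same values. Simulated peaks were solved with their scale given, so the choice of scale had no separate check. Intervals are 95% Wilson intervals and cover counting error only. No test between groups was made, since each has 1 library. Named peaks are the 5 of highest fold per list, the 3 of highest fold without overlap, and the 3 widest and outermost. Ends are given in bands of ratio, and named bins and stretches are the 3 with the most peaks per list and the 3 longest without peaks. Widest and outermost peaks, and the bins with the largest difference, were added after their values were seen. The members and these lists were chosen with earlier results of these data known. No genome sequence, gene or repeat annotation of GRCz11 was used here.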

Additional observations from a re-analysis of the deposited data

Results flagged for a closer look

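The far end of chromosome 4 was outside the 49 ends and entered none of the comparisons, yet its outermost 1 Mb held peaks in both lists, with 47 in the tet2/3 morpholino and 79 in the control list. Of these, 9 tet2/3 morpholino (19.1%) and 42 control peaks (53.2%) had no overlapping peak of the other list, against 9.45% and 69.4% on all 25 chromosomes.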

How the results depend on the processing

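Of 107 values recomputed under another setting, 17 could not move by construction, such as a width at the ends when another interior was used. Of the other 90, 61 stayed within the limits set for them and 29 moved. None of the 107 changed the direction of ends against interior. With the control list shortened, tet2/3 morpholino density, width and distance could not change it. With 50% of both intervals required, the interval of the tet2/3 morpholino share at the ends (50.5 to 52.5) held the interior value of 51.3%. The limits were a factor of 1.5 for densities and ratios, the 95% interval for shares, and 1 SD over the ends without the start of chromosome 3 for widths and distances. With a −log10 q of 5 or more, the tet2/3 over control ratio at the ends was 0.480 (0.167 in the interior), 0.619 in the outermost bin and 0.368 at 900 to 1000 kb. Without overlap at the ends were 9.97% of tet2/3 morpholino and 58.7% of control peaks (6.00% and 84.5% in the interior). The tet2/3 morpholino median width and distance at the ends were 432 and 3973 bp. With a fold of 4 or more the shares at the ends were 31.2% and 40.8% (21.2% and 72.6% in the interior). Median widths at the ends were then 400 and 596 bp and distances 3576 and 3686 bp. With the control list shortened, the ratio was 1.90 at the ends (0.882 in the interior), 2.63 in the outermost bin and 1.38 at 900 to 1000 kb. The shares at the ends were then 51.5% and 19.7% (34.6% and 45.4% in the interior), and control width and distance 639 and 4277 bp. For ends of 0.5 Mb the shares were 17.6% and 38.1%, for 2 Mb 14.6% and 50.4%, and without the outermost 100 kb the control share was 45.0%. In the interior the shares stayed at 7.88% (tet2/3 morpholino) and 72.8% (control) under these settings. Shares at the ends were 51.5% and 64.2% when 50% of each interval had to be covered (51.3% and 85.1% in the interior). They were 9.59% and 36.8% when a gap of 500 bp was allowed (6.48% and 69.8% in the interior). Stricter cuts and overlap rules move these values by construction, and otherwise the cause was not tested. Settings for single bins and for the start of chromosome 3 were chosen after seeing the data. No paired analysis was possible because neither morpholino has a repeat pull-down. The depth of the libraries was known only through the background of their peaks, and the length of a chromosome only as its last peak end.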
